A study of Mus with 4 samples.

Results

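The genes described here are 10 inflammatory cytokine and acute phase genes, Il6, Il1a, Il1b, Tnf, Osm, Socs3, Ptgs2, Saa3, Lcn2 and Tnfaip6. They were taken by gene symbol from the 19505 named genes of an Affymetrix array, each is read by 1 probe set, and 9 of the 10 passed a filter on level that 10021 genes passed. They were chosen with their values on these same arrays in view, above all their lower readings on high-fat diet, so every difference below is a description with no test and no p-value.

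RNA came from subcutaneous tumors of Renca, a mouse renal adenocarcinoma line, carrying either a stable short hairpin against Nrf3 (shNrf3), the factor encoded by Nfe2l3, or a control hairpin (shCtrl). Hosts were male BALB/cCrSlc mice, 4 to 6 weeks old when bought, that ate a high-fat diet (HFD) or normal chow (NC) for 17 weeks before injection into the flank, and tumors were taken 2 weeks later. The 4 groups were shNrf3-HFD, shCtrl-HFD, shNrf3-NC and shCtrl-NC, with 1 array each, so no difference has a replicate check. All 4 groups carry a hairpin, in the tumor cells and not in the host, and grew in an immunocompetent strain. Whether an array read RNA of 1 tumor or of a pool, and whether a hairpin line is 1 clone, is not given in the labels.

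Interleukin-6 and oncostatin M signal through receptors that share the gp130 chain, activate STAT3 and induce SOCS3, which feeds back on the receptor. Interleukin-1 and TNF act through NF-kB and induce, among others, IL-6, the prostaglandin synthase COX-2 (Ptgs2) and the hyaluronan-binding protein TSG-6 (Tnfaip6). Both arms drive the acute phase genes, and in tumors these products come from cancer cells, fibroblasts and infiltrating myeloid cells.

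Values are RMA levels on the log2 scale, where a difference of 1 is 2-fold. The 5222 negative control rows had medians of 5.35 to 5.39 on the 4 arrays. Their 95th percentiles, 8.97 to 9.35, are called the control ceiling below. The targeted gene Nfe2l3 read 6.05 on shNrf3-HFD, 5.77 on shCtrl-HFD, 5.56 on shNrf3-NC and 6.22 on shCtrl-NC, which goes with the label in NC and against it in HFD, all far below that ceiling. Groups are therefore named by the labels of their arrays. The epithelial keratin gene Krt18 read 14.46 to 15.90 on the 4 arrays, while the renal tubule genes Pax2, Pax8, Cdh16 and Lrp2 read at or below the control median on every array.

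Tnf, the gene of tumor necrosis factor, read below the control median on all 4 arrays (4.47 on shNrf3-HFD, 3.72 on shCtrl-HFD, 4.17 on shNrf3-NC and 3.29 on shCtrl-NC), so no difference is given for it. Il6, Il1b, Ptgs2, Saa3 and Lcn2 lay above the control ceiling on all 4 arrays, and Tnfaip6 on 3. Il1a, Osm and Socs3 lay between the control median and the ceiling on every array, and their differences are the least certain of the 9.

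**Figure D1:**
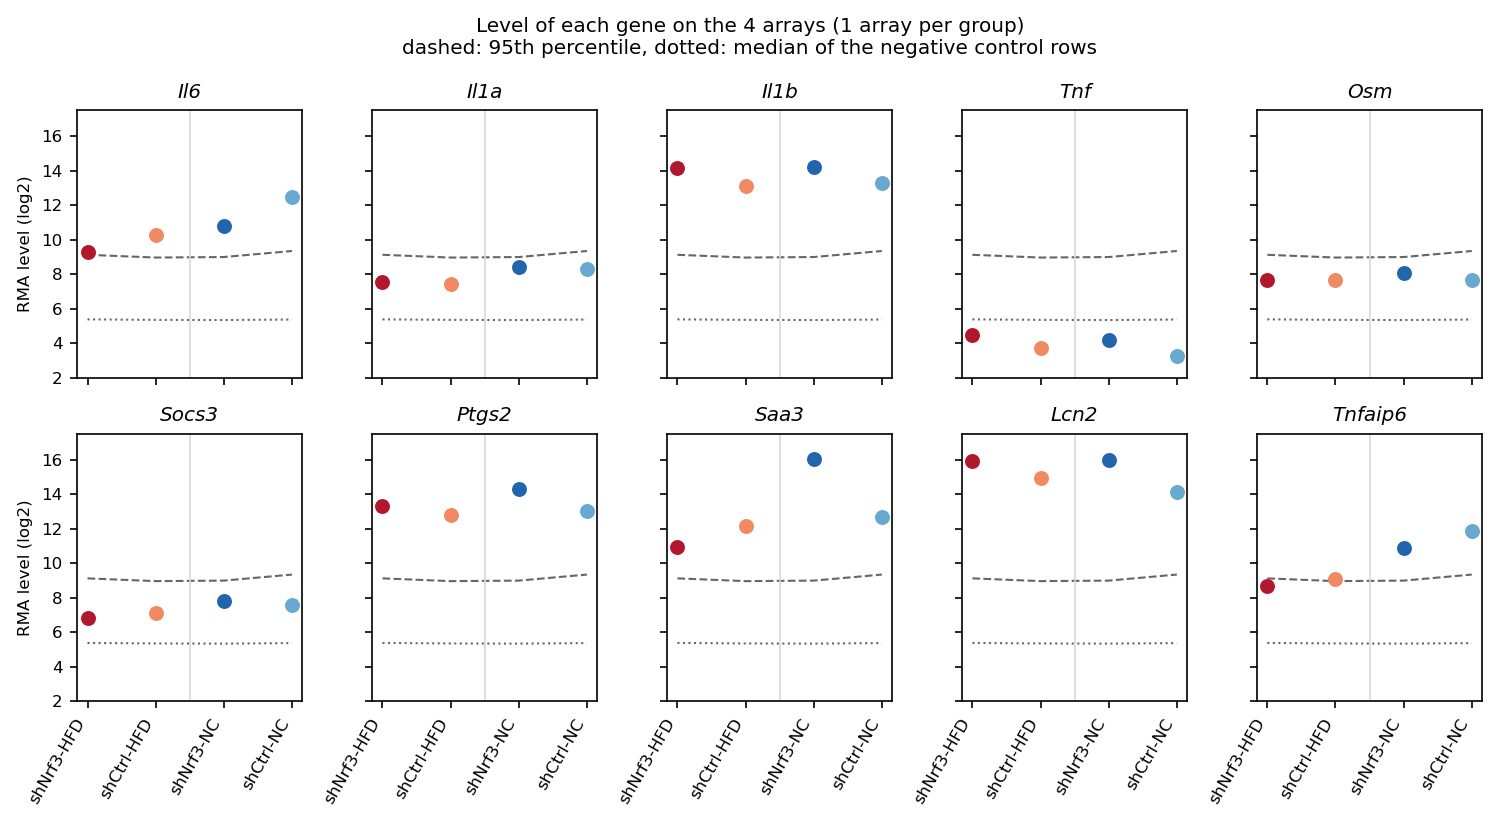
RMA level (log2, vertical axis) of each of the 10 genes on the 4 arrays (horizontal axis, 1 point per array), with the median (dotted) and the 95th percentile (dashed) of the control rows. Il6 and Tnfaip6 lie lowest on the HFD arrays, Saa3 stands at 16.07 on shNrf3-NC, and Tnf lies under the dotted line throughout.

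Il6 and Tnfaip6 were lower in HFD than in NC with both hairpins, and the rest of the genes did not share that difference to the same degree. At 2-fold or more, 3 of the 9 genes (Il6, Tnfaip6 and Saa3) were lower in HFD tumors with shNrf3, where 4.93% of all filtered genes were, and 2 of 9 (Il6 and Tnfaip6) in HFD tumors with shCtrl, where 3.79% were. None of the 9 was 2-fold higher in HFD with either hairpin, against 1.76% of filtered genes with shNrf3 and 14.5% with shCtrl. Il6 and Tnfaip6 were 2-fold lower with both hairpins, as were 0.539% of filtered genes, and none of the 9 was 2-fold higher with both, as 0.330% were. The median HFD minus NC difference of the 9 was -0.98 with shNrf3 and -0.47 with shCtrl, beside -0.03 and 0.26 over all filtered genes. Because the genes were chosen for this difference, these shares describe them and support nothing. In whole tumor RNA, fewer cells of a type and less RNA per cell cannot be told apart.

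On both HFD arrays 5 of the 9 genes, Il6, Il1a, Socs3, Saa3 and Tnfaip6, read below both NC arrays, as did 10.4% of filtered genes. None read above both, as 20.2% of filtered genes did. With an array left out, no count with both hairpins can be made. The array left in that diet was instead compared with both arrays of the other diet, which mixes hairpin with diet. The count of genes 2-fold lower in HFD in both of those comparisons was 1 without shNrf3-HFD (Tnfaip6), beside 0.788% of filtered genes. It was 3 without shCtrl-HFD (Il6, Saa3 and Tnfaip6), beside 1.71%. It was 2 without shNrf3-NC (Il6 and Tnfaip6), beside 1.52%, and 2 without shCtrl-NC (Saa3 and Tnfaip6), beside 1.90%. Tnfaip6 alone was among them in all 4 cases.

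Of the IL-6 arm, Il6 read 9.29 on shNrf3-HFD, 10.25 on shCtrl-HFD, 10.82 on shNrf3-NC and 12.46 on shCtrl-NC. The HFD and NC arrays did not overlap, and within each diet the shNrf3 array was the lower one. It was 2.89-fold lower in HFD with shNrf3 (difference -1.53) and 4.60-fold lower with shCtrl (-2.20). Of all filtered genes 1.55% had a difference as low as this with shNrf3 and 0.150% with shCtrl. On the shNrf3-HFD array Il6 lay just above the control ceiling of 9.13.

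Osm, which encodes the gp130 ligand oncostatin M, read 7.68 on both HFD arrays, 8.10 on shNrf3-NC and 7.65 on shCtrl-NC. Its HFD minus NC difference was -0.42 with shNrf3 and 0.03 with shCtrl, and 85.3% of filtered genes had a spread over the 4 arrays as wide as its 0.44 or wider. Socs3, the feedback inhibitor induced by STAT3, read 6.81 on shNrf3-HFD, 7.11 on shCtrl-HFD, 7.80 on shNrf3-NC and 7.59 on shCtrl-NC. Both HFD arrays were below both NC arrays, with differences of -0.99, just short of 2-fold, with shNrf3 and -0.47 with shCtrl.

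The IL-1 genes parted from each other. Il1a and Il1b, which lie next to each other in the RefSeq gene order of mouse assembly GRCm38.p6, encode the cytokines interleukin-1 alpha and beta. Il1a read 7.58 on shNrf3-HFD, 7.44 on shCtrl-HFD, 8.45 on shNrf3-NC and 8.29 on shCtrl-NC, with a HFD minus NC difference of -0.87 with shNrf3 and -0.85 with shCtrl. Il1b read 14.17 on shNrf3-HFD, 13.13 on shCtrl-HFD, 14.21 on shNrf3-NC and 13.30 on shCtrl-NC, and its diet differences were -0.04 with shNrf3 and -0.17 with shCtrl. Il1a thus separated the arrays by diet, at low readings, and Il1b by hairpin.

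Tnfaip6, whose product TSG-6 binds hyaluronan and is induced by TNF and IL-1, read 8.69 on shNrf3-HFD, 9.10 on shCtrl-HFD, 10.87 on shNrf3-NC and 11.89 on shCtrl-NC. Its HFD readings lay at the control ceiling (9.13 on shNrf3-HFD and 8.97 on shCtrl-HFD). It was 4.55-fold lower in HFD with shNrf3 (-2.19) and 6.88-fold lower with shCtrl (-2.78). Of all filtered genes 0.679% had a difference as low with shNrf3 and 0.0200% with shCtrl. Ptgs2, the inducible prostaglandin synthase COX-2, read 13.33 on shNrf3-HFD, 12.80 on shCtrl-HFD, 14.31 on shNrf3-NC and 13.01 on shCtrl-NC. Its diet difference was -0.98 with shNrf3 and -0.21 with shCtrl, and the arrays of the 2 diets overlapped.

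The acute phase genes also went separate ways. Saa3, a serum amyloid A made outside the liver by macrophages, adipocytes and other cells, read 10.97 on shNrf3-HFD, 12.16 on shCtrl-HFD, 16.07 on shNrf3-NC and 12.70 on shCtrl-NC. It was 34.2-fold lower in HFD with shNrf3 (-5.10), a difference that 0.110% of filtered genes matched or went below, and 1.45-fold lower with shCtrl (-0.54). The larger difference is between the highest of the 4 arrays and the lowest. Lcn2, the siderophore-binding lipocalin 2, read 15.90 on shNrf3-HFD, 14.94 on shCtrl-HFD, 15.99 on shNrf3-NC and 14.11 on shCtrl-NC. It differed by -0.09 between diets with shNrf3 and was 1.78-fold higher in HFD with shCtrl (0.83).

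**Figure D2:**
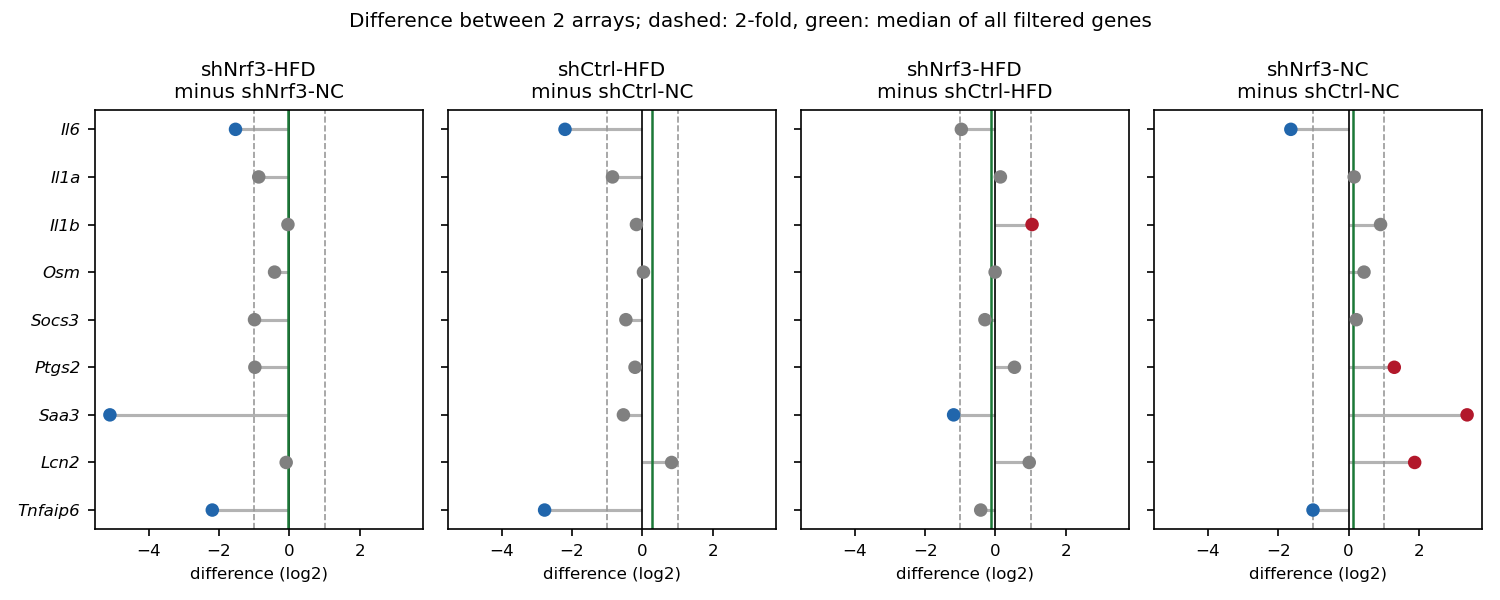
Differences between 2 arrays (log2, horizontal axis) for the 9 genes past the filter (rows) in the 4 comparisons (panels). Blue and red points are 2-fold or more lower and higher, dashed lines mark 2-fold and the green line is the median of all filtered genes. Il6 and Tnfaip6 pass 2-fold downward in both diet panels, and Saa3 spans from -5.10 to 3.37.

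By hairpin, Il1b, Ptgs2 and Lcn2 read higher with shNrf3 than with shCtrl in each diet, and Il6 and Tnfaip6 read lower. On both shNrf3 arrays 3 of the 9 genes, Il1b, Ptgs2 and Lcn2, read above both shCtrl arrays, as did 16.4% of filtered genes. None read below both, as 18.9% did. In HFD, 1 of 9 was 2-fold or more higher with shNrf3 (Il1b), beside 2.30% of filtered genes, and 1 lower (Saa3), beside 6.95%. In NC, 3 were higher (Ptgs2, Saa3 and Lcn2), beside 13.2%, and 2 lower (Il6 and Tnfaip6), beside 4.47%. None of the 9 was 2-fold higher in both diets, where 0.799% of filtered genes were, and none was lower in both, where 0.809% were. Without shNrf3-HFD, the remaining shNrf3 array was 2-fold higher than both shCtrl arrays for 3 genes (Ptgs2, Saa3 and Lcn2), beside 2.31% of filtered genes, and without shNrf3-NC it was 2-fold lower than both for 1 (Saa3), beside 2.23%. Without shCtrl-HFD both shNrf3 arrays were 2-fold lower than shCtrl-NC for 2 (Il6 and Tnfaip6), beside 2.09%, and higher for 1 (Lcn2), beside 6.82%, and without shCtrl-NC they were 2-fold higher than shCtrl-HFD for 1 (Il1b), beside 0.918%. The median shNrf3 minus shCtrl difference was -0.01 in HFD and 0.44 in NC, beside -0.14 and 0.14 over all filtered genes.

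Lcn2 differed by 0.96 in HFD (1.94-fold) and 1.88 in NC (3.69-fold), Il1b by 1.04 and 0.91, and Ptgs2 by 0.54 and 1.30. Il6 differed by -0.97 in HFD (1.95-fold lower with shNrf3) and by -1.64 in NC (3.11-fold lower). Tnfaip6 also had the same sign in both diets, -0.42 in HFD and -1.01 in NC. For Il6 and Tnfaip6 alike, the 2 shNrf3 arrays lay on both sides of shCtrl-HFD. Il1a differed by 0.14 in HFD and 0.16 in NC, Socs3 by -0.30 and 0.22 and Osm by -0.01 and 0.44.

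Saa3 turned round between diets. It was 2.29-fold lower with shNrf3 in HFD (-1.19) and 10.3-fold higher with shNrf3 in NC (3.37), a hairpin by diet difference of -4.56. That difference was -1 or lower for 1 of the 9 genes and for 21.7% of filtered genes, and 1 or higher for 0 of 9 and 6.37%. The other 8 genes lay between -0.93 (Lcn2) and 0.67 (Il6). Il1a (-0.02) and Il1b (0.13) had nearly the same hairpin difference in both diets.

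The genes around these 10 in each pathway were counted without the 10 themselves. For the pathway and cell type counts below, the shares of all filtered genes are as follows. In HFD 1.76% were 2-fold higher and 4.93% lower with shNrf3, and 14.5% and 3.79% with shCtrl. By hairpin 2.30% were higher with shNrf3 and 6.95% lower in HFD, and 13.2% and 4.47% in NC. The medians of those 4 comparisons were -0.03, 0.26, -0.14 and 0.14, in that order. Among IL-6 family ligands, receptors and signalling genes, 13 of 19 measured passed the filter. With shNrf3 0 were 2-fold higher in HFD and 2 lower (median -0.27, beside -0.03 over all filtered genes), and with shCtrl 2 were higher and 0 lower (0.21, beside 0.26). Il6st, which encodes gp130, read 12.16 on shNrf3-HFD, 12.95 on shCtrl-HFD, 12.68 on shNrf3-NC and 12.03 on shCtrl-NC. Bcl3, a nuclear IkB protein, was lower in HFD with shNrf3 (-1.59) and higher with shCtrl (1.21), and differed by 2.49 between shNrf3 and shCtrl in NC. The kinase gene Tyk2 differed between diets by 0.19 with shNrf3 and 1.33 with shCtrl, and the LIF receptor gene Lifr by -1.12 and 0.05. Ptpn11, the phosphatase SHP2, was lower with shNrf3 in both diets (-1.33 in HFD and -1.15 in NC). By hairpin the list had 0 higher and 2 lower in HFD (median -0.37), and 2 higher and 1 lower in NC (-0.06). Lif, the neighbour of Osm, differed by no more than 0.16 in any of the 4 comparisons, and Stat3 by no more than 0.27; both were singled out after their values were seen.

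IL-1 family genes leaned to the shNrf3 side in NC. Of 17 measured genes 16 passed the filter. With shNrf3 2 were 2-fold higher and 3 lower in HFD (median 0.27, beside -0.14 over all filtered genes). In NC 7 were higher, where 13.2% of filtered genes were, and 1 lower, where 4.47% were (median 0.87, beside 0.14). In NC, genes of natural antagonists had the largest differences of the list. Il18bp, which binds interleukin-18, differed by 1.09 in HFD and 3.44 in NC, and Il1rn, the IL-1 receptor antagonist, by 1.10 and 2.49. Il1rap, the receptor accessory chain, was lower in both diets (-1.45 and -1.50) and was named after its values were seen. By diet, 0 were higher in HFD and 3 lower with shNrf3 (median -0.52), and 3 higher and 1 lower with shCtrl (0.09). Il33, an alarmin of stromal cells, differed by -2.08 with shNrf3 and -0.96 with shCtrl, the decoy receptor gene Il1r2 by -0.92 and 1.08, and the inhibitory kinase gene Irak3 by -1.81 and 0.18.

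TNF and NF-kB genes had a diet median of -0.32 with shNrf3 (0 of 20 past the filter higher, 4 lower) and 0.51 with shCtrl (1 higher, 0 lower). Over all filtered genes those medians were -0.03 and 0.26. By hairpin 0 were higher in HFD and 2 lower (median -0.45, beside -0.14), and in NC 4 higher and 0 lower (0.35, beside 0.14). Nfkbia, the NF-kB inhibitor that NF-kB itself induces, read 12.15 on shNrf3-HFD, 13.58 on shCtrl-HFD, 14.12 on shNrf3-NC and 13.02 on shCtrl-NC. Its hairpin difference was -1.42 in HFD and 1.11 in NC, opposite in sign as for Saa3. Tnfaip3, the A20 feedback inhibitor, was lower in HFD with both hairpins (-1.41 with shNrf3 and -0.92 with shCtrl). Zfp36, which destabilises cytokine mRNA, differed by -0.76 and 1.16, and Traf1 by -1.18 and 0.92.

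Most of the other acute phase genes read lower in HFD with each hairpin. Of 24 measured genes 13 passed the filter, and 11 of the 13 had a negative HFD minus NC difference with shNrf3 and 10 with shCtrl. Of all filtered genes 49.1% had a difference of -0.04 or lower with shNrf3, and 35.3% one of 0.03 or lower with shCtrl. With shCtrl the differences were small, from -0.91 to 0.63. Among those 10, Saa1, Hamp, Serpina1a and Orm1 read low, from 5.49 to 6.38 on the shCtrl arrays. With shNrf3 6 of the 13 were 2-fold lower in HFD and 0 higher (median -0.98, beside -0.03 over all filtered genes), and with shCtrl 0 were lower and 0 higher (-0.46, beside 0.26). Serpina3n, a serine protease inhibitor, differed by -3.41 with shNrf3 and -0.82 with shCtrl, the LPS-binding protein gene Lbp by -1.96 and -0.91, haptoglobin (Hp) by -1.77 and 0.63, and Cebpd, a transcription factor of acute phase genes, by -1.54 and -0.50. By hairpin 0 were higher in HFD and 2 lower (median -0.17), Serpina3n (-1.77) and Lbp (-1.14). In NC 4 were higher and 0 lower (0.76), Lrg1 (2.0), Hp (1.88), Cebpd (1.37) and the ceruloplasmin gene Cp (1.14). Lrg1 and Cp were named after their values were seen. Saa1 and Saa2, near-identical liver genes that share their locus with Saa3, read 4.76 to 6.00 on the 4 arrays, near the control median, and the liver products Crp, Hpx and Apcs read below it on all 4.

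Of the prostaglandin E2 and hyaluronan genes, 13 of 19 passed the filter. By diet 0 were higher and 2 lower in HFD with shNrf3 (median -0.41), and 2 higher and 2 lower with shCtrl (-0.29). Has1, a hyaluronan synthase, followed Tnfaip6. It read 5.30 on shNrf3-HFD, below that array's control median, 6.54 on shCtrl-HFD, 6.90 on shNrf3-NC and 8.11 on shCtrl-NC, with diet differences of -1.51 or lower with shNrf3 and -1.57 with shCtrl. Versican (Vcan), a hyaluronan-binding proteoglycan, differed by -2.27 and 0.15, the hyaluronidase gene Hyal2 by -0.41 and 1.37, and Alox5ap, which serves leukotriene synthesis, by -0.41 and 1.21. By hairpin 0 were higher and 3 lower in HFD (median 0.03), and 3 higher and 2 lower in NC (0.27). Ptges, the inducible PGE2 synthase downstream of COX-2, was lower with shNrf3 (-1.61 in HFD and -0.76 in NC), unlike Ptgs2. Pla2g4a, the phospholipase gene next to Ptgs2, differed by 0.74 in HFD and 0.50 in NC and was singled out after its values were seen.

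**Figure D3:**
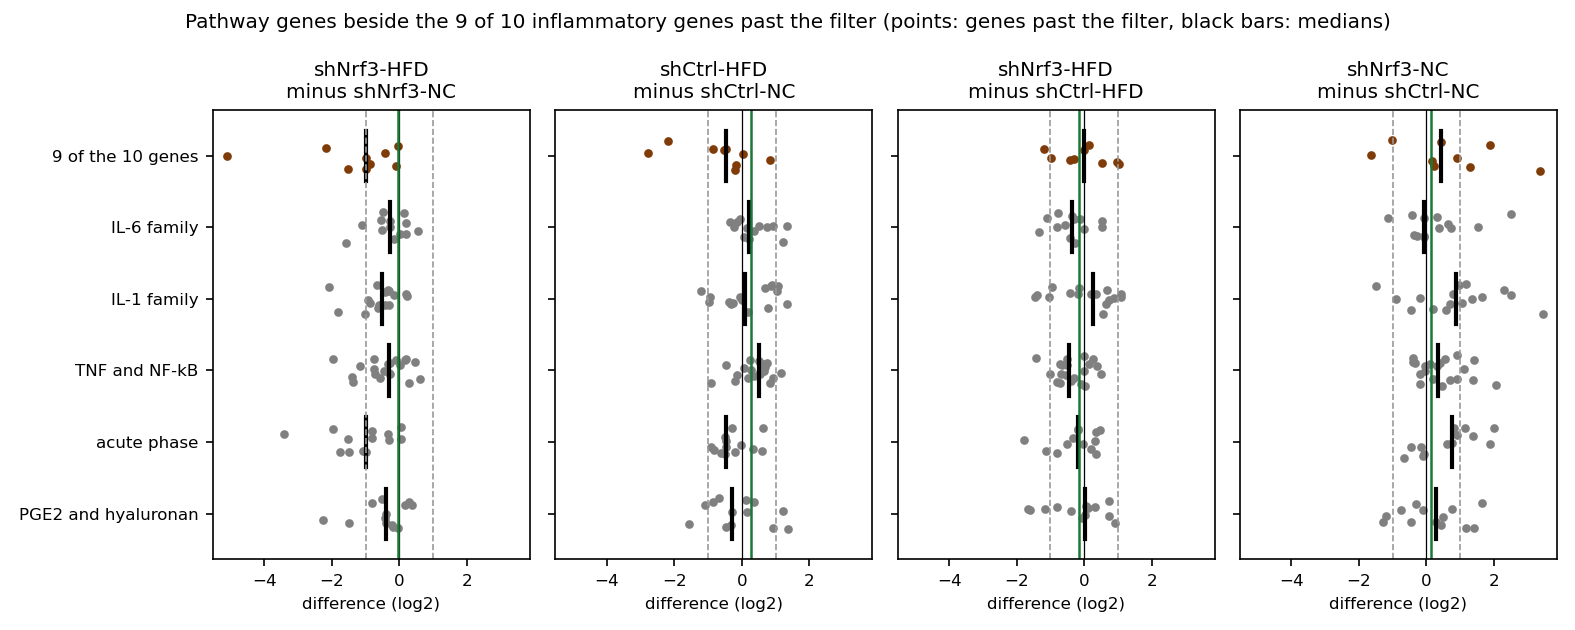
Differences between 2 arrays (log2, horizontal axis) for the 9 genes and for the other genes of 5 pathway lists (rows) that passed the filter, 1 point per gene, with the list median as a black bar and the median of all filtered genes in green. The acute phase median lies at -0.98 in the shNrf3 diet panel and at -0.46 in the shCtrl panel.

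Markers of other cell types differed between the same arrays, and their part in the differences above was not tested. All 11 measured fibroblast and pericyte markers read above the control median on every array, and their mean level was 10.26 on shNrf3-HFD, 11.85 on shCtrl-HFD, 11.64 on shNrf3-NC and 12.45 on shCtrl-NC. As for Il6 and Tnfaip6, shCtrl-NC was the highest array and shNrf3-HFD the lowest, but the order of the other arrays differed. Endothelial markers had the same extremes (mean level 7.78 on shCtrl-NC and 6.69 on shNrf3-HFD). By diet 7 of the 11 fibroblast and pericyte markers were 2-fold lower in HFD with shNrf3 and 3 with shCtrl (medians -1.34 and -0.65), and 0 were higher. Of all filtered genes 4.93% and 3.79% were lower, with medians of -0.03 and 0.26. Lumican (Lum) differed by -2.84 with shNrf3 and -1.78 with shCtrl, decorin (Dcn) by -3.35 and -1.06, and periostin (Postn) by -1.04 and -1.77. Other markers of the list did not: Pdgfrb differed by 0.13 and 0.65, Fap by 0.35 and -0.15, Rgs5 by 0.03 and -0.69 and Dpt by -2.82 and 0.07. By hairpin 9 of the 11 were 2-fold lower with shNrf3 in HFD (median -1.62) and 4 in NC (-0.79), and 0 were higher. Of all filtered genes 6.95% and 4.47% were lower.

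All 15 measured macrophage and monocyte markers also read above the control median on every array. Their mean level was 11.16 on shNrf3-HFD, 10.68 on shCtrl-HFD, 11.40 on shNrf3-NC and 10.11 on shCtrl-NC, the same order of arrays as for Lcn2. With shNrf3 3 of 15 were 2-fold higher in HFD and 11 in NC (medians 0.55 and 1.19), and 0 lower. Of all filtered genes 2.30% and 13.2% were higher, with medians of -0.14 and 0.14. The chemokine receptor gene Ccr2 differed by 1.53 in HFD and 1.47 in NC, Aif1 by 0.36 and 2.11 and C1qb by -0.65 and 1.83. By diet 0 of the 15 were 2-fold higher in HFD and 2 lower with shNrf3 (median -0.19). With shCtrl 4 were higher and 1 lower (0.5). Of all filtered genes 1.76% were higher and 4.93% lower with shNrf3, and 14.5% and 3.79% with shCtrl. Neutrophil markers, of which 9 of 13 measured passed the filter, averaged 8.07 on shNrf3-HFD, 8.29 on shCtrl-HFD, 7.88 on shNrf3-NC and 7.36 on shCtrl-NC. By diet 1 of the 9 was 2-fold higher in HFD and 0 lower with shNrf3 (median 0.5), and 6 were higher and 1 lower with shCtrl (1.58). Stfa2 differed by 2.02 with shNrf3 and 1.97 with shCtrl, and Mmp9 by -0.65 and -1.43. The granule genes Elane, Mpo and Camp read at or below the control median on all 4 arrays, while Mmp9 read 9.02 to 11.45.

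The shNrf3-NC array, on which Saa3 peaked, also had the highest mean levels of skeletal muscle, adipocyte, T cell and macrophage and monocyte markers. The 10 muscle markers averaged 5.39 on shNrf3-HFD, 6.31 on shCtrl-HFD, 9.35 on shNrf3-NC and 5.91 on shCtrl-NC, and all 10 were above the control median on shNrf3-NC only. The 9 measured adipocyte markers averaged 7.03 on shNrf3-HFD, 8.15 on shCtrl-HFD, 8.78 on shNrf3-NC and 7.11 on shCtrl-NC, and were not all highest on shNrf3-NC. Adipoq read 11.73 on shNrf3-NC, against 9.70 on shCtrl-HFD, while Plin1 (5.40 against 6.48) and Lipe (8.16 against 8.50) read lower there than on shCtrl-HFD. The 8 measured T cell markers averaged 5.02 on shNrf3-HFD, 5.37 on shCtrl-HFD, 6.55 on shNrf3-NC and 5.70 on shCtrl-NC. On every array 0 of these 8 lay above the control ceiling, and on shNrf3-HFD only 1 lay above the control median. Of the 5 past the filter 3 were 2-fold lower in HFD with shNrf3 and 0 with shCtrl. Their medians were -1.66 or lower and 0.01, beside -0.03 and 0.26 over all filtered genes. With shNrf3 in NC 3 were 2-fold higher (median 1.66 or more, beside 0.14). In both cases the 3 were Cd3e, Cd3g and Cd8a. They read 7.05, 7.84 and 7.43 on shNrf3-NC and 5.01 to 5.76 on the other arrays. These genes passed the filter only through shNrf3-NC, so the filter itself favoured these counts and medians. The values of all filtered genes are no yardstick for them. Endothelial markers averaged 6.69 on shNrf3-HFD, 7.51 on shCtrl-HFD, 6.81 on shNrf3-NC and 7.78 on shCtrl-NC. The ranges of mean level over the 4 arrays were 4.43 to 6.01 for keratinocyte, 8.43 to 8.96 for epithelial and renal, and 4.47 to 4.86 for mast cell markers. The epithelial and renal mean includes the tubule genes that read at or below the control median. Single markers differed more: Epcam read 9.09 on shNrf3-NC and 10.63 to 11.12 on the other arrays, while Krt19 was highest on shNrf3-NC (8.97). The keratinocyte gene Krt10 read 4.72 on shNrf3-HFD and 9.50 on shCtrl-HFD.

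**Figure D4:**
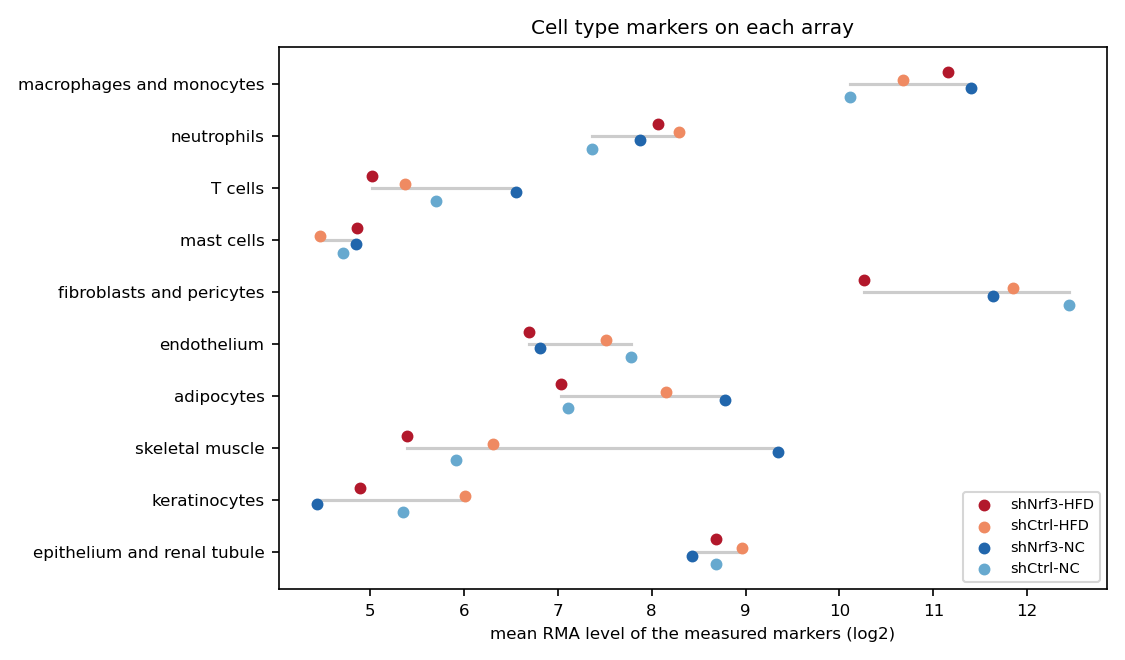
Mean RMA level (log2, horizontal axis) of the measured markers of 10 cell types (rows) on the 4 arrays (points, set apart vertically for legibility). Muscle markers stand at 9.35 on shNrf3-NC against 5.39 to 6.31 on the other arrays, and fibroblast markers are lowest on shNrf3-HFD at 10.26.

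The 9 genes did not follow 1 pattern over the 4 arrays. Likeness was measured as the Euclidean distance between the profiles of 2 genes over the 4 arrays after each gene's mean was subtracted, on the log2 scale. The closest pairs were Il1a with Socs3 (0.34), Osm with Socs3 (0.60) and Il1b with Ptgs2 (0.67). The profiles were not scaled, so genes with a small spread over the arrays lie close whatever their pattern. The spread was 1.01 for Il1a, 0.99 for Socs3 and 0.44 for Osm, against 5.10 for Saa3. Il6 lay 0.85 from Tnfaip6, which ranked 8 among the filtered genes. From Il6, Lcn2 lay 3.61 away (rank 9753) and Saa3 3.67 away (rank 9787). With 4 arrays many genes can share a pattern, so these distances are a description only.

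The 5 genes nearest to Il6 were Fam110c (distance 0.42), the Ras activator Rasgrp3 (0.45), Has1 (0.46), the heparan sulfatase Sulf1 (0.57) and Postn (0.66), a marker of the fibroblast list. Fam110c read 6.47 on shNrf3-HFD, 7.31 on shCtrl-HFD, 8.42 on shNrf3-NC and 9.87 on shCtrl-NC. Nearest to Saa3 were the B cell chemokine gene Cxcl13 (0.76), the muscle myosin light chain gene Mylpf (1.02), the hyaluronan receptor gene Lyve1 (1.28), the adipokine gene Retn (1.43) and Apoc1 (1.45). Mylpf and Retn belong to the muscle and adipocyte lists. Cxcl13 read 6.74 on shNrf3-HFD, 8.68 on shCtrl-HFD, 12.88 on shNrf3-NC and 9.01 on shCtrl-NC.

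Nearest to Lcn2 were the cell cycle inhibitor gene Cdkn2c (0.14), the ubiquitin ligase gene Marchf1 (0.15), the quinone reductase gene Nqo1 (0.16), Parp3 (0.18) and the phosphofructokinase gene Pfkm (0.19). Within a distance of 1 lay 1036 filtered genes for Lcn2, against 19 for Il6 and 1 for Saa3, so many genes not named here lie as near. Cdkn2c read 10.97 on shNrf3-HFD, 10.16 on shCtrl-HFD, 11.03 on shNrf3-NC and 9.17 on shCtrl-NC. Lcn2 and these genes thus read high on both shNrf3 arrays and lowest on shCtrl-NC, whereas Saa3, the other acute phase gene of the 10, read lowest on shNrf3-HFD.

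**Figure D5:**
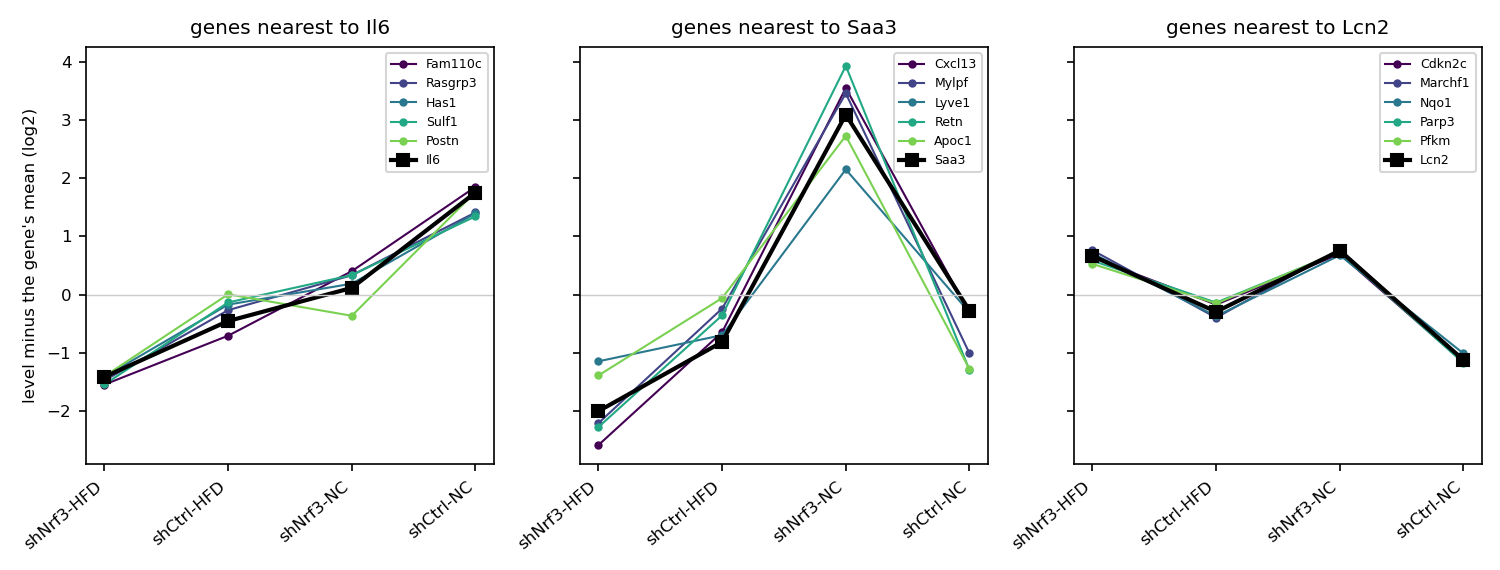
Level minus the gene's mean over the 4 arrays (log2, vertical axis) for Il6, Saa3 and Lcn2 (black) and the 5 genes nearest to each (colours), by array (horizontal axis). Il6 is lowest on shNrf3-HFD and highest on shCtrl-NC, Saa3 peaks on shNrf3-NC, and Lcn2 is high on both shNrf3 arrays.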

How the data were processed

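The authors deposited 1 table of RMA values on the log2 scale for 4 arrays, made with Affymetrix Expression Console, per the submitters' processing notes; neither a version nor the genome build is given in the sources used here. Total RNA (100 ng) was labelled with biotin, per the labels' protocols. The table has 28846 rows, of which 22206 are transcript rows. Symbols came from the platform annotation (19572 probe sets with 1 symbol, 0 with several, 2634 transcript rows unnamed), updated by Entrez ID, all matched, through a RefSeq table of GRCm38.p6 used for names and gene order only. For the 55 of 19505 genes that several probe sets read, the highest mean decided. Genes with a mean of 5.73 or more, the median of all rows, were kept (10021).

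A reading below its array's negative control median was set to that median, and a pair with both below it has no difference. Differences of 1 or more on the log2 scale were counted. With 1 array per group no test was run; the counting was tested on simulated data. There is no count depth on an array; precision is limited by having 4 arrays.

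The 10 genes, the 5 pathway lists (IL-6 family, IL-1 family, TNF and NF-kB, acute phase, prostaglandin E2 and hyaluronan), the 10 cell type lists, the rule for named genes and the alternatives were chosen with earlier results of these data known. The rule takes the 10 genes, Nfe2l3, in each pathway list the 4 genes with the largest mean absolute diet difference and the 2 with the largest hairpin difference, up to 3 markers of each cell type list, and the 5 genes nearest to Il6, Saa3 and Lcn2. Alternatives were cyclic loess (limma 3.58.1 in R 4.3.3), centring, other filters, the mean of probe sets, a 1.5-fold threshold, readings below the control median used as they are, and, added after the values were seen, leaving out each array. No sequences were used here.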

Additional observations from a re-analysis of the deposited data

Results flagged for a closer look

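Some named genes differed 2-fold or more in opposite directions in the 2 diets or with the 2 hairpins. With 1 array per group the opposition itself was not tested, and Saa3, Nfkbia, Bcl3, Il18bp, Retn, Adipoq, Cidec, Acta1 and Myl1 all read highest on the shNrf3-NC array. Among the 10 genes this holds for Saa3, whose shNrf3 minus shCtrl difference was -1.19 in HFD and 3.37 in NC. Nfkbia had the same signs by hairpin (-1.42 in HFD and 1.11 in NC). Bcl3 and Il18bp were lower in HFD with shNrf3 (-1.59 and -1.01) and higher with shCtrl (1.21 and 1.34).

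The same was seen for adipocyte and muscle markers. Acta1 and Myl1 passed the filter only through their readings on shNrf3-NC (12.51 and 11.38), which favours such differences. By hairpin, Retn differed by -1.92 in HFD and 5.23 in NC, Adipoq by -1.33 and 3.35, Cidec by -1.84 and 2.29, Acta1 by -1.09 or lower and 7.13 or more, and Myl1 by -1.07 or lower and 6.00 or more. By diet, Adipoq differed by -3.37 with shNrf3 and 1.31 with shCtrl, Cidec by -2.96 and 1.17, Acta1 by -7.12 or lower and 1.09 or more, and Myl1 by -6.00 or lower and 1.07 or more.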

How the results depend on the processing

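Under the 7 alternative settings that keep every array, no difference of 2-fold or more among the 9 genes changed sign. Il6 and Tnfaip6 stayed 2-fold lower in HFD with both hairpins as deposited and under those settings (Il6 from -1.57 to -1.51 with shNrf3 and from -2.51 to -2.10 with shCtrl). Osm changed sign, at differences of -0.16 to 0.13. The median of all filtered genes in the shCtrl diet comparison was 0.26 as deposited, 0.04 after cyclic loess and 0.36 after centring. Shares of all filtered genes stand in parentheses. After loess 2 of the 9 were higher with shNrf3 in HFD (2.81%), 1 of them in both diets (0.839%), and 1 had a hairpin by diet difference of 1 or higher (9.08%). After centring 5 were lower in HFD with shNrf3 (5.49%), 2 were lower (7.80%) and 0 higher (1.98%) with shNrf3 in HFD, 1 was lower with shNrf3 in NC (3.17%), 1 was lower in both diets (0.679%), and 2 had a hairpin by diet difference of -1 or lower (26.4%). At 1.5-fold 6 were lower in HFD with shNrf3 (14.3%), 1 was higher in HFD with shCtrl (31.1%), 2 were lower (20.6%) and 2 higher (9.01%) with shNrf3 in HFD, 1 was lower (3.67%) and 2 higher (3.03%) in both diets, and the hairpin by diet difference called 3 lower (37%) and 2 higher (13.7%). With the filter at the 75th percentile (8.45) 6 of the 10 genes remained, and 3 had both HFD arrays below both NC arrays (8.64%). Leaving out 1 array changed the comparison, as described above, and is no check of the counts with both hairpins or in both diets. It gave 1 to 3 genes lower in HFD (0.788% to 1.90%), and 0 to 2 lower (1.15% to 2.39%) and 0 to 3 higher (0.918% to 6.82%) with shNrf3. Saa3 was then 2-fold higher with shNrf3 without shNrf3-HFD and 2-fold lower without shNrf3-NC. The cause was not tested. No paired analysis was possible because each group has 1 array.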
